A study of Canis lupus familiaris with 29 samples.

Results

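The genes described here are those whose expression in every B-cell lymphoma lay above their expression in every T-cell lymphoma of the same series of dogs. They were chosen by their measured values: among table rows with at least 1 FPKM in at least 5 libraries, a gene was a member when its highest FPKM over the 9 T-cell libraries was lower than its lowest FPKM over the 20 B-cell libraries. FPKM is the number of fragments scaled for transcript length and for how many fragments mapped, a level per length. The rule found 65 members, or 0.563% of the 11552 rows that passed the minimum level, of 16382 rows in all. Every member passed the minimum level, because the rule is applied only to rows that do. The separation of the 2 phenotypes chose the members, so their levels in B-cell against T-cell tumours are given below as a description, and no test of that contrast is read as support.

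The libraries came from lymphomas of golden retrievers, and the labels call 20 of them B-cell and 9 T-cell tumours. B-cell tumours came from 9 females and 11 males, of which 17 were neutered and 3 intact, aged 2.0 to 14.0 years at diagnosis. T-cell tumours came from 6 females and 3 males, of which 6 were neutered and 3 intact, aged 4.5 to 11.9 years. All are tumours of 1 breed, with no normal lymph node and no treatment in the labels. The sources used here do not state how the phenotype was determined, what share of each sample was tumour, or that each library came from a separate dog. In such bulk samples, fewer cells of a type and less RNA per cell cannot be told apart.

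Lymphomas keep much of the expression programme of the lymphocyte they arose from. A B lymphocyte builds a surface immunoglobulin receptor and its signalling partners, holds a set of lineage transcription factors and presents antigen on MHC class II, whereas a T lymphocyte uses the T-cell receptor with CD3 and its own kinases. Canine lymphocytes of both lineages can carry MHC class II. Genes carry only an Ensembl ID in the table, and 0 of the 16382 IDs could be matched to a symbol in the gene table used here. The members can therefore not be assigned to these programmes, and the phenotype labels could not be checked against B-cell or T-cell marker genes. 2 members, those with the widest gap between phenotypes, are given by ID, and the others by their place in the order of levels.

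Library depth bears little on levels of several FPKM but can matter near 0. The summed FPKM ran from 408273 to 677096 over B-cell and from 319067 to 530668 over T-cell libraries. FPKM carries no fragment counts, but the steps between the lowest values give relative depth. Set against the median library, it ran from 0.647 to 1.54 over B-cell and from 0.363 (T-cell library 5) to 1.1995 (T-cell library 8) over T-cell libraries. The absolute depth is unknown, and the values carry no counting intervals.

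ENSCAFG00000004474 had the widest gap of all members, and its levels in T-cell tumours were close to 0. Over the 20 B-cell libraries it ran from 4.03 FPKM (library 15) through a median of 13.8 to 31.6 FPKM (library 7), with a mean of 14.8 ± 7.96 FPKM (SD, n = 20). Over the 9 T-cell libraries it ran from 0.0798 FPKM (library 6) through a median of 0.562 to 2.17 FPKM (library 3), with a mean of 1.02 ± 0.788 FPKM (SD, n = 9). The lowest B-cell library was 1.85 times the highest T-cell library, and the B-cell median was 24.6 times the T-cell median. Within B-cell tumours the gene varied 7.86-fold from lowest to highest, and its SD of 0.79 on the log2(FPKM + 1) scale was the largest of the 65 members.

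ENSCAFG00000010160 had the next widest gap with a different pattern, being expressed in all 29 tumours at levels that differed moderately. It ran from 41.5 FPKM (library 13) through a median of 60.7 to 130.9 FPKM (library 5) over B-cell libraries. Over T-cell libraries it ran from 15.01 FPKM (library 1) through a median of 21.7 to 27.6 FPKM (library 3). The means were 63.5 ± 19.7 FPKM (SD, n = 20) and 21.5 ± 5.08 FPKM (SD, n = 9). The lowest B-cell library was 1.503 times the highest T-cell library. T-cell library 6, where ENSCAFG00000004474 was lowest, held 27.3 FPKM of this gene, near the top of the T-cell range.

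**Figure D1:**
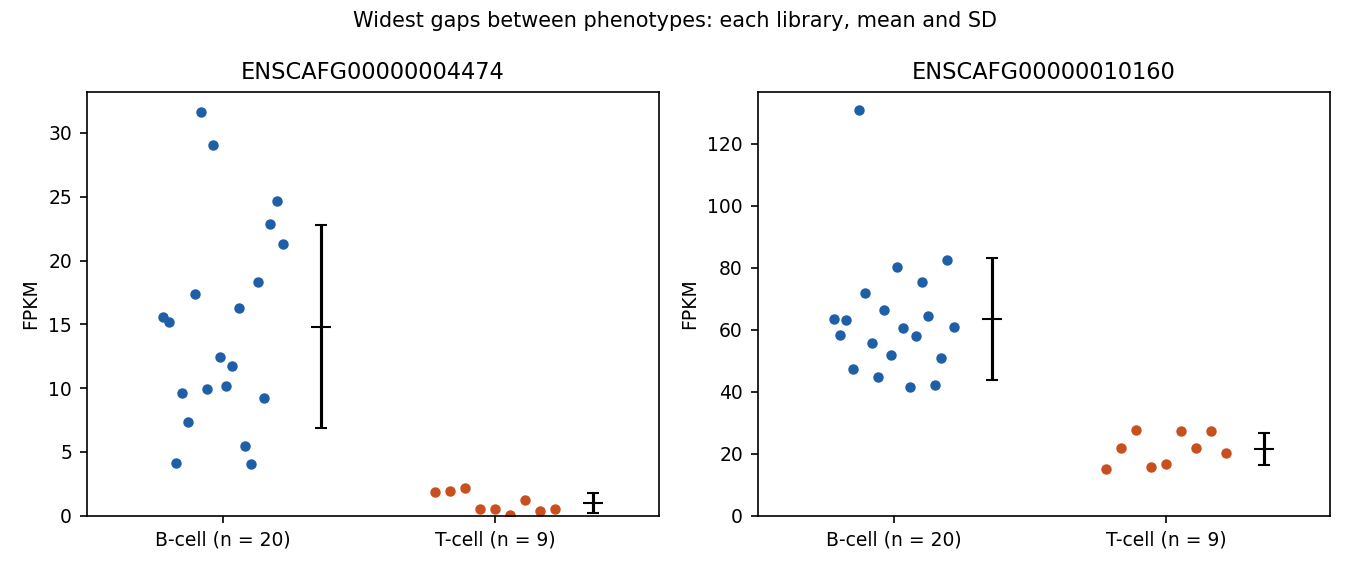
FPKM (vertical axis, linear from 0) of the 2 members with the widest gap in each B-cell (blue, n = 20) and T-cell library (orange, n = 9), with the mean and SD beside the points. ENSCAFG00000004474 lies at or below 2.17 FPKM in all T-cell libraries, whereas ENSCAFG00000010160 lies between 15.01 and 27.6 FPKM there, and in neither gene do the groups overlap, as the rule requires.

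For most members the gap was narrow. The ratio of the lowest B-cell to the highest T-cell FPKM had a median of 1.11 over the 65 members. It was at least 1.2 in 18 members and at least 1.5 in 2, the 2 given by ID. Just inside the rule were members at 4.392 against 4.391 FPKM (lowest B-cell and highest T-cell library), 5.96 against 5.92 FPKM and 82.5 against 81.8 FPKM. Just outside were rows at 22.23 against 22.28 FPKM, 319.8 against 320.8 FPKM and 32.2 against 32.5 FPKM. Membership at the edge of the set thus turned on small differences in single libraries.

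The distance between the group medians was larger than that gap. The B-cell median was 2.39 times the T-cell median in the middle member, from 1.32 to 48.1 times over the set. It was at least 2 times the T-cell median in 44 of 65 members, at least 4 times in 14 and at least 8 times in 3. As a difference of mean log2(FPKM + 1), B-cell minus T-cell, the members ran from 0.41 to 3.51 with a median of 1.24, whereas the median over all 11552 rows was -0.09. With median-of-ratios scaling and with quantile normalization the members' medians were 1.327 and 1.335 and those of all rows -0.01 and 0.03, and the choice of members all but fixes their direction under either. In limma on log2(FPKM + 1), all 65 members were past an adjusted p under 0.05 as higher in B-cell tumours, where 16.8% of all rows were (40.4% in either direction), and nothing is read from this count because the rule used the same contrast.

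The members were mostly genes of moderate to high level that T-cell tumours also expressed. The B-cell median was at least 100 FPKM in 11 members, from 10 to under 100 FPKM in 43 and under 10 FPKM in 11. Its median over members was 32.1 FPKM, against 12.5 FPKM over all rows that passed the minimum level. In T-cell tumours the members' medians themselves had a median of 15.02 FPKM, against 13.5 FPKM over all rows. In 61 of 65 members the T-cell median was at least 1 FPKM, and 50 members were at 1 FPKM or more in all 9 T-cell libraries. The T-cell median had a lower quartile of 4.49 FPKM over members and 4.88 FPKM over all rows. Detection in T-cell tumours was thus not particular to the members, and the minimum level favours it. Most members were thus detected in both phenotypes, at a higher level in B-cell tumours.

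**Figure D2:**
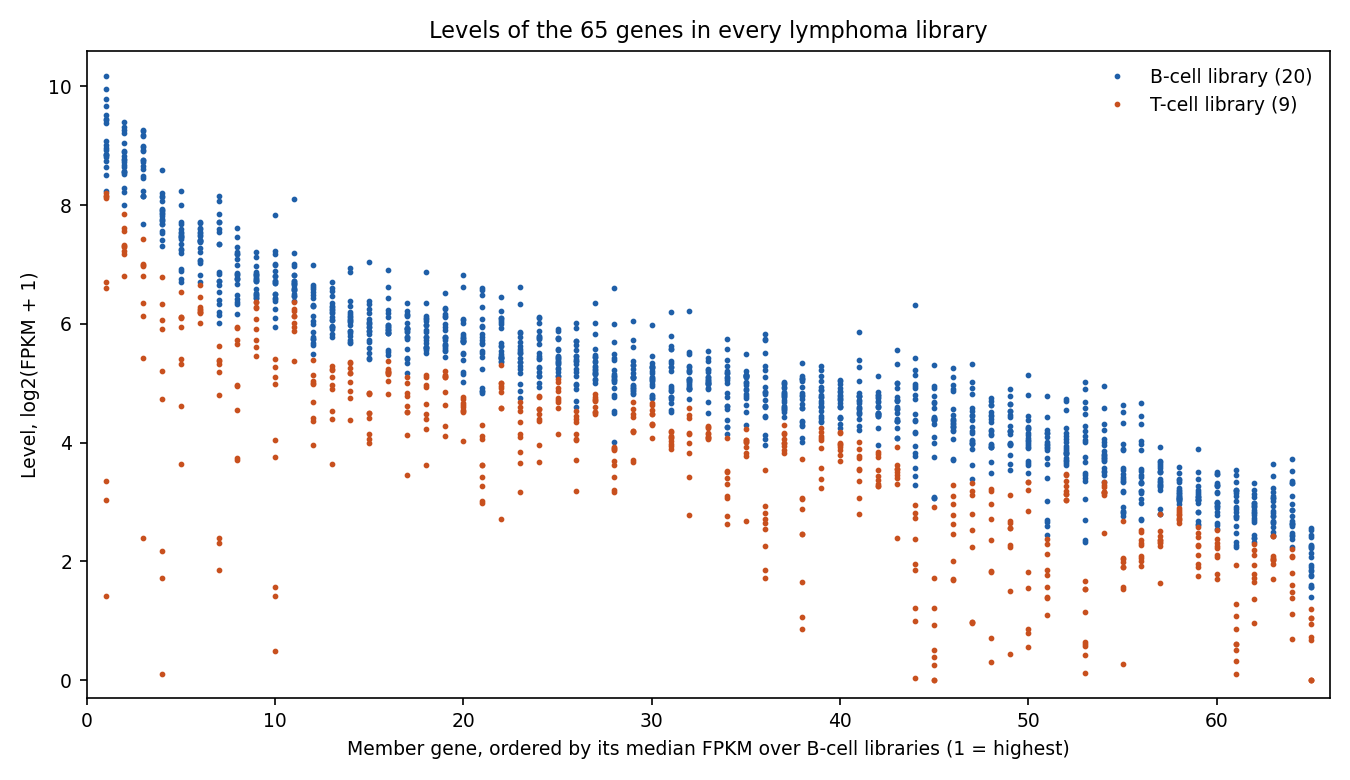
Level of each of the 65 members (horizontal axis, ordered by median FPKM over B-cell libraries) in each library, as log2(FPKM + 1) on the vertical axis, with B-cell libraries in blue and T-cell libraries in orange. B-cell points of a member span 1.53-fold to 8.96-fold in FPKM. In several of the 13 members with a T-cell SD of at least 0.8 some T-cell points fall far below the others.

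Within T-cell tumours the members behaved in more than one way. The member with the highest level, at 301.6 to 1160 FPKM over B-cell libraries (median 506.2 FPKM), stood at 277.0, 283.0, 283.3 and 295.3 FPKM in T-cell libraries 3, 2, 1 and 7. The same gene stood at 103.2 and 95.8 FPKM in T-cell libraries 4 and 5. It fell away to 9.17, 7.14 and 1.66 FPKM in T-cell libraries 8, 9 and 6. So 4 T-cell tumours came close to the lowest B-cell tumour for this gene. In 3 it was still detected, but far below its B-cell levels.

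The member with the next highest level showed nothing of this kind. It ran from 253.9 through a median of 428.0 to 676.8 FPKM over B-cell libraries and from 111.2 (library 8) through a median of 158.3 to 228.5 FPKM over T-cell libraries, where library 6 was the highest. The member next in order of level ran from 204.6 through 426.3 to 611.5 FPKM in B-cell and from 4.22 (library 9) through 111.1 to 172.1 FPKM in T-cell libraries. In that gene T-cell library 6 held 42.1 FPKM and library 8 held 80.4 FPKM, so T-cell library 9 alone stood far below the others.

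The member after that again divided the T-cell tumours as the most abundant one did. Its B-cell range was 158.0 to 383.5 FPKM with a median of 226.5 FPKM. In T-cell libraries 3, 1, 7 and 2 it stood at 110.2, 79.4, 65.6 and 59.0 FPKM, in libraries 5 and 4 at 35.7 and 25.5 FPKM, and in libraries 8, 9 and 6 at 3.53, 2.29 and 0.0734 FPKM. A further one of the abundant members had the opposite character, with 103.6 to 208.7 FPKM over B-cell libraries and a narrow 63.9 to 100.1 FPKM over T-cell libraries. There library 5 was the highest and library 2 the lowest T-cell library.

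The members were divided by the SD of log2(FPKM + 1) over T-cell libraries, with a limit of 0.8 chosen after the values were seen. The SD was at least 0.8 in 13 members, from 0.88 to 2.66, and at most 0.80 in the other 52. That share of 20% was near the 20.9% of all rows whose T-cell SD reached the limit. The limit does not separate the patterns cleanly. Among the 13 was the member in which T-cell library 9 alone stood far below the others. ENSCAFG00000004474 was among the 52, with an SD of 0.57. Its level fell to 0.0798 FPKM in T-cell library 6, against a T-cell median of 0.562 FPKM. Over B-cell libraries no member reached an SD of 0.8, against 8.83% of all rows. A gene with a wide B-cell spread is less likely to pass a rule on its lowest B-cell value, so the B-cell figure follows in part from the choice of members. The SD was the larger in T-cell than in B-cell tumours in 39 of 65 members, or 60.0%, against 70.0% of all rows.

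The 13 members with a wide T-cell spread included 7 of the 10 members with the highest B-cell median, and their B-cell medians ran from 15.7 to 506.2 FPKM. The 1 added before the logarithm shrinks the SD of genes at low FPKM. Abundant members therefore reach the limit more easily, and no link between level and T-cell spread is read from this count. Taken as a percentage of each gene's B-cell median, the middle one of the 13 stood at 46.9% in T-cell library 3, 35.2% in library 1, 33.8% in library 7 and 30.7% in library 2. It stood at 20.4% in library 4 and 16.3% in library 5, and at 5.14%, 4.15% and 2.97% in libraries 9, 8 and 6. Under 10% of the B-cell median were 11 of the 13 in library 6, 11 in library 8 and 9 in library 9, against 0 to 2 in each of the other 6 libraries. The 13 were picked for their spread over these libraries, so low values in some of them follow in part from that choice. The same count was not made for the other members or for all rows, so it only describes the 13.

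For the other 52 members, set apart by their smaller T-cell spread, the middle value varied less between T-cell tumours, although single members did not all do so. It ran from 37.0% of the B-cell median in T-cell library 5 to 52.1% in library 2, and was 45.4% in library 6, 40.5% in library 8 and 38.6% in library 9. T-cell libraries 6, 8 and 9 had relative depths of 1.13, 1.1995 and 0.870 and summed FPKM of 516448, 398760 and 425879, within the range of the other libraries. The relative depth of T-cell library 5 was 0.363. The part of depth in these values was not tested. Libraries 6 and 8 came from females, 1 intact and 1 neutered, and library 9 from an intact male, and all 3 labels write the phenotype with a space. Whether normal B cells or other cells in these samples have a part in these values was not tested, since no marker gene could be read.

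**Figure D3:**
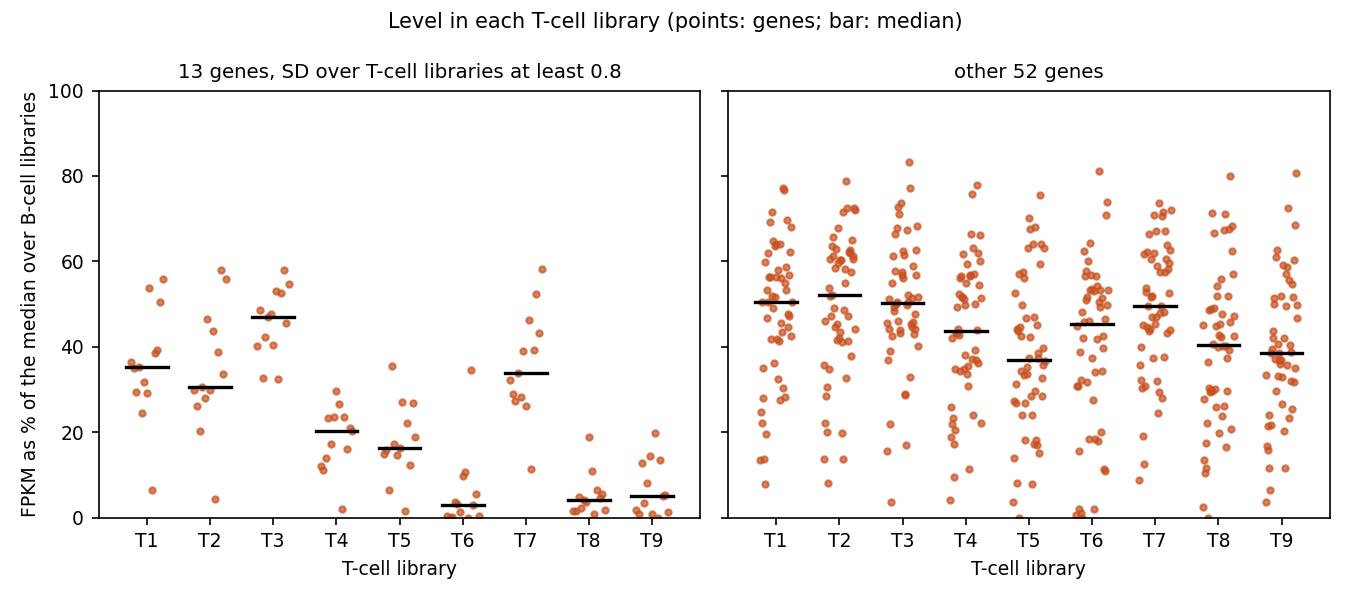
FPKM of each member in each T-cell library as a percentage of its median over the 20 B-cell libraries (vertical axis), for the 13 members with a T-cell SD of at least 0.8 (left) and the other 52 (right), with the median as a bar. On the left the medians run from 2.97% in T6 to 46.9% in T3, and on the right they stay between 37.0% and 52.1%.

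The 13 also varied together. Across the 9 T-cell libraries, pairs of the 13 correlated in log2(FPKM + 1) at a median Pearson r of 0.86 (78 pairs), and no pair was negative. Pairs of the other 52 had a median r of 0.25, and pairs of all rows one of 0.00. Across the 20 B-cell libraries the same 13 had a median r of 0.22, no closer than the 0.26 of the other 52 members. All pairs of members share their libraries and the scaling of each library, the 13 were picked for their spread in these 9 libraries, and genes are not independent replicates, so these correlations only describe the set.

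Some members came near absence in T-cell tumours, and so did some of all rows. The lowest T-cell value had a lower quartile of 1.66 FPKM over members and 1.52 FPKM over all rows. The counts below are therefore not read as particular to the members. Under 1 FPKM in at least 1 T-cell library were 15 members, and T-cell library 6 accounted for 14 of them, against 7 in library 8, 6 in library 9, 4 in library 5 and 1 or 2 in each of the rest. Under 1 FPKM in 5 or more T-cell libraries were 4 members, ENSCAFG00000004474 among them. The largest ratio of medians, 48.1, belonged to another of these 4, which stood at 7.39 to 38.5 FPKM over B-cell libraries and at 0.416 FPKM in the middle T-cell library. Its highest T-cell library was library 3 at 6.52 FPKM, and it was listed at 0 in libraries 6 and 9. The member with the lowest level, at 1.64 to 4.90 FPKM over B-cell libraries, was listed at up to 1.29 FPKM over T-cell libraries and likewise had libraries at 0, so that 2 of 65 members had a T-cell library at 0.

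At the other end were members with steady levels inside each phenotype. The smallest difference between phenotypes was 1.32-fold between medians, in a gene at 6.77 to 10.99 FPKM over B-cell and 5.28 to 6.46 FPKM over T-cell libraries, with SDs of 0.17 and 0.08 on the log2(FPKM + 1) scale. Another stood at 21.6 to 45.5 FPKM over B-cell and at 15.7 to 18.5 FPKM over T-cell libraries, with SDs of 0.24 and 0.09. In such genes the T-cell tumours lay close together and the B-cell tumours differed more among themselves.

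Among B-cell tumours the members varied by a median of 2.76-fold from the lowest to the highest library. The median was 3.47-fold over those of all rows whose lowest B-cell library was above 0. The rule favours genes with a high lowest B-cell value, so the smaller figure follows in part from the choice of members. The widest variation was 8.96-fold, in a member at 8.75 to 78.4 FPKM, and the narrowest 1.53-fold, in a member at 20.6 to 31.4 FPKM. The lowest B-cell value was set by library 13 in 13 members, by library 8 in 11 and by library 4 in 8, and by any other B-cell library in at most 5. The highest B-cell value was set by library 5 in 18 members, by library 7 in 11, by library 1 in 10 and by library 11 in 8. On the T-cell side, library 3 was the highest T-cell tumour in 26 of 65 members, and library 5, 6, 8 or 9 was the lowest in 58. How often each library was the extreme over all rows was not counted. The counts of extremes therefore describe the members without showing that they differ from other genes.

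Averaged over the 65 members, the level in log2(FPKM + 1) ran from 4.82 in B-cell library 13 through a median of 5.14 to 5.40 in library 7, and from 3.11 in T-cell library 6 through a median of 3.64 to 4.08 in library 3. The means were 5.12 ± 0.16 (SD, n = 20) and 3.62 ± 0.38 (SD, n = 9). Within the labels that write the phenotype with a hyphen, which may or may not mark a batch, the means were 5.17 in 8 B-cell and 3.798 in 2 T-cell libraries. Within the labels with a space they were 5.08 in 12 B-cell and 3.57 in 7 T-cell libraries. In its own library the middle member ranked at the 82.7th ± 2.17 percentile of all rows in B-cell tumours and at the 63.4th ± 4.61 in T-cell tumours (SD, n = 20 and n = 9).

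The members together took 0.886% ± 0.123 of the summed FPKM of a B-cell library (SD, n = 20) and 0.325% ± 0.0716 of that of a T-cell library (SD, n = 9). The shares ran from 0.680% (library 8) to 1.07% (library 7) in B-cell tumours and from 0.222% (library 6) to 0.401% (library 3) in T-cell tumours. The 3 most abundant members held 34.0% ± 4.09 of this sum in B-cell and 26.7% ± 5.78 in T-cell libraries. B-cell library 5 shows how the scale matters: it had the highest FPKM in 18 members, but also the highest summed FPKM of all libraries, 677096, and its share of 0.731% was among the lower ones.

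**Figure D4:**
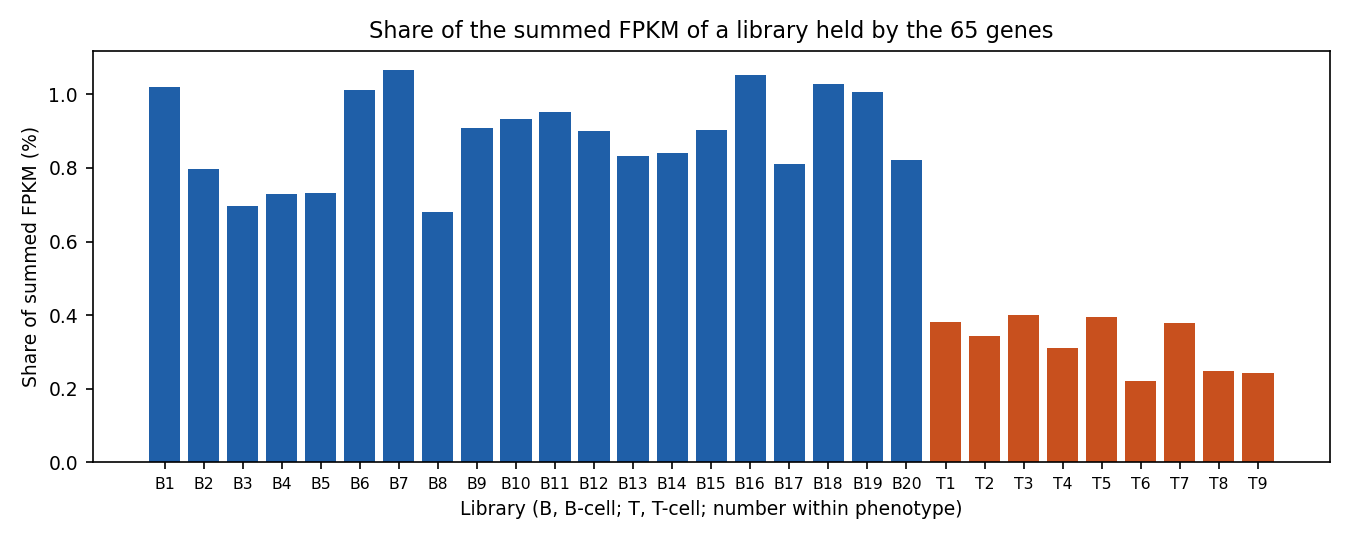
Share of the summed FPKM of each library held by the 65 members together (vertical axis, percent, from 0), with B-cell libraries in blue and T-cell libraries in orange. B-cell libraries lie between 0.680% and 1.07% and T-cell libraries between 0.222% and 0.401%, a separation that follows from how the genes were chosen.

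Within B-cell tumours the members rose and fell together only loosely. Pairs of members had a median Pearson r of 0.20 over the 20 B-cell libraries (2080 pairs), where pairs of all rows had one of 0.01, and 28.0% of the member pairs were negative. With each library centred on its median row the median r of the members was 0.33, and pairs of all rows were not computed on that scale. The 3 rows whose B-cell profile was most like the mean of the members had Spearman rho of 0.85, 0.85 and 0.83 over the 20 libraries. None of the 3 was a member, but members made up only 0.563% of the rows searched, so nothing is read from that.

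The rule did not use the sex of the dogs, so the members were tested for it, in a fit on all 11552 rows that accounted for phenotype and neuter status. No member passed (limma, Benjamini-Hochberg adjusted p under 0.05), where 0.00866% of all rows did, and the lowest adjusted p of a member was 0.436. At an unadjusted p under 0.05 limma gave 2 of 65 members, 1 higher in females and 1 in males, where 10.9% of all rows were past it. With each library left out in turn this count was 0 to 3, and the share of all rows in those fits was not computed. The members' log2 differences, female minus male, ran from -0.31 to 0.34 with a median of 0.00, against 0.03 over all rows. The 95% interval of the middle member extended 0.30 log2 units each way. For ENSCAFG00000004474 the difference was -0.21 ± 0.27 (SE; limma adjusted p = 0.769), and for ENSCAFG00000010160 it was 0.00 ± 0.14 (SE; limma adjusted p = 0.9997).

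Neuter status was compared in the same way, with phenotype and sex in the model. Again limma called 0 of 65 members and 0% of all rows, with a lowest adjusted p of 0.384 among members. An unadjusted p under 0.05 was reached by 4 members, 3 higher in neutered and 1 higher in intact dogs, against 11% of all rows. That count was 11 without T-cell library 1, 8 without T-cell library 8, 7 without B-cell library 9 and 2 without T-cell library 6 or 9. How the share of all rows moved in those fits was not computed, so these counts show only that the number is unsteady. The differences, neutered minus intact, had a median of 0.09, against 0.03 over all rows, and the 95% interval of the middle member, not adjusted over rows, extended 0.38 log2 units each way. In B-cell libraries only, the median difference of the members was -0.04. There were 6 intact dogs, 3 in each phenotype.

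For age at diagnosis, with phenotype, sex and neuter status in the model, limma called 0 members and 0% of all rows. The slope was upward in 53 of 65 members, with a median of 0.03 log2 units per year against 0.00 over all rows. The share of all rows with an upward slope was not counted. At an unadjusted p under 0.05 there were 6 members, all with higher levels in older dogs, a share of 9.23% against 5.02% of all rows. That count rested on single libraries: it was 2 without B-cell library 13, 3 without T-cell library 5 and 10 without B-cell library 2. It was 2 in neutered dogs and 2 in labels with a space. For these fits too the share of all rows was not computed. The steepest slope among members was 0.18 ± 0.04 log2 units per year (SE; limma unadjusted p = 0.000551), in a gene singled out after its values were seen, and its adjusted p was 0.899. The members are correlated with each other, so the 53 upward slopes are not 53 separate observations.

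An interaction term asked whether the gap between phenotypes was of another size in females than in males. Among the 65 members limma called 0, as among all rows (0%), with a lowest adjusted p of 0.522. An unadjusted p under 0.05 was found for 3 members, against 8.87% of all rows. That count was 10 without T-cell library 7, 7 without T-cell library 8, 6 without B-cell library 7 and 5 without B-cell library 20. The share of all rows at an unadjusted p under 0.05 in these limma fits was not computed. The interval of the middle member extended 0.67 log2 units each way, and only 3 males had T-cell tumours. Without T-cell library 7, 1 of these 3 males, 1 of 65 members passed (limma adjusted p = 0.0349), in a fit that called 327 of 11552 rows.

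The size of the set depended on single libraries and on the scaling, as a rule on extreme values must. Leaving out 1 library can only add genes, and all 65 stayed in each of the 29 cases. Without T-cell library 6 the set grew to 108 genes, without T-cell library 5 to 88 and, as the largest number for a B-cell library, without library 13 to 85. Without any other single B-cell library it held 65 to 78 genes. T-cell library 6 was thus both the T-cell tumour lowest in 20 of the 65 members and the one that kept most further genes out of the set.

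**Figure D5:**
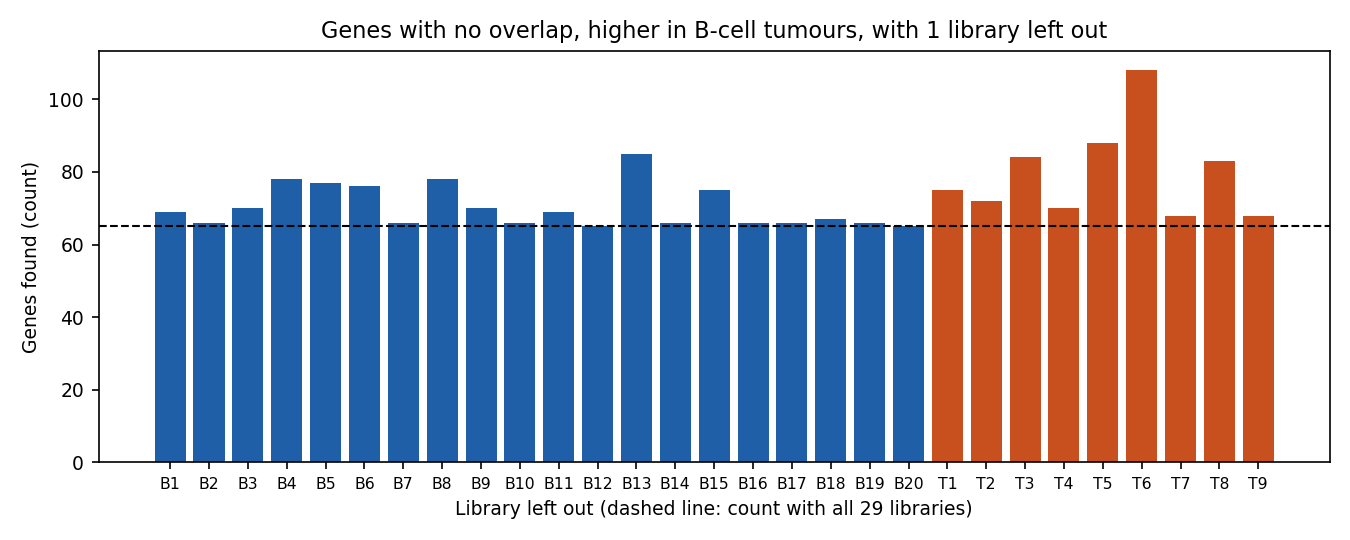
Number of genes whose lowest B-cell library lies above their highest T-cell library (vertical axis, count from 0) when the library on the horizontal axis is left out, with the 65 of all 29 libraries as a dashed line. The count is 108 without T6, 88 without T5 and 85 without B13.

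With median-of-ratios scaling 90 genes had no overlap, and 63 of the 65 were among them. With quantile normalization there were 100, of which 53 were members. Ranking rows within each library also gave 100 with 53 members, but quantile normalization uses only those ranks, so this is no separate check. As deposited, with median-of-ratios scaling and with quantile normalization alike, 52 of the 65 genes remained separated.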

How the data were processed

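Per the labels' protocols, a Qiagen kit gave the RNA and Illumina TruSeq kits the libraries. The submitters' processing notes name TopHat 1.4.1, Cuffdiff, FastQC 0.11.2 and the build CanFam3.1. The options, annotation and scaling of libraries against each other were not given in the sources used here. FPKM are the values the authors deposited, one value per Ensembl gene and library. Of 78 columns, the 29 named by sample titles were used and 49 were not. Library numbers follow accession order inside each phenotype.

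The members and lists were chosen with earlier results of these data known. Values were tested as log2(FPKM + 1), which understates the change of low genes, with limma 3.58.1 in R 4.3.3 (variance trend, robust moderation, both directions, Benjamini-Hochberg over 11552 rows). The fits and the search for members were tested on simulated data. Python 3.11.15, numpy 2.4.6, pandas 2.3.3 and matplotlib 3.10.9 did the rest. Relative depth came from the most frequent ratio of FPKM under 0.2 between 2 libraries; 99.88% of 812 ordered pairs lay within 0.05 log2 units of the fit. The rule for named genes took the 2 IDs with the largest ratio of lowest B-cell to highest T-cell FPKM when no symbol can be had. Marker lists and gene lists could not be applied without symbols. P-values reflect only the spread among these libraries, which may be technical. Alternatives are named in the closing section.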

Additional observations from a re-analysis of the deposited data

Results flagged for a closer look

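Dixon's gap, which asks whether the highest or lowest of the 9 T-cell libraries stands apart from the rest, was computed for the FPKM of each of the 65 members and for 8 further values given by library, 2 of which repeat the members given by ID. It was past its limit in 7 members and in none of the summary values. On the log2(FPKM + 1) scale it was past the limit in 9 of 65 members. Chance gives about 1 in 20 if values are normally distributed, which FPKM over 9 tumours need not be. The share of all rows past the limit was not computed, so no excess among members is read from these counts. The members share their libraries, so these are not separate events.

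In 4 of the 7 the lowest library stood apart. T-cell library 5 was at 5.41 FPKM in one member and at 4.60 FPKM in another, T-cell library 6 at 5.53 FPKM in a gene whose other T-cell libraries held 23.0 to 38.7 FPKM, and T-cell library 8 at 15.3 FPKM in a gene at 21.7 to 26.1 FPKM elsewhere. In 3 the highest library stood apart: T-cell library 6 at 15.96 FPKM, T-cell library 3 at 6.52 FPKM and T-cell library 5 at 2.85 FPKM. In these 3 genes that 1 library set the upper T-cell value on which membership rests.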

How the results depend on the processing

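The 65 genes numbered 63 with a mean of at least 5 FPKM, 65 with no filter, 90 with median-of-ratios scaling and 100 with quantile normalization. They were 2 when the lowest B-cell had to be 1.5 times the highest T-cell library, 181 in neutered dogs and 158 in labels with a space, and each library left out gave 65 to 108. Fewer libraries leave more genes without overlap. Labels with a hyphen (847 genes) and ranks within a library (100) were added after seeing the data. Rows called between phenotypes (4664, or 40.4%) stayed within 1.5 times in 8 of 9 alternatives and gave 4313 to 5047 with each library left out; labels with a hyphen, with 2 T-cell libraries, gave 565. Sex, neuter status and age gave 0 members under every alternative run, libraries left out included, as did the interaction in its 8 other alternatives; over single libraries left out the interaction gave 0 to 1, the 1 without T-cell library 7, and the cause was not tested. The interaction could not be fitted in labels with a hyphen, where both T-cell dogs are female. No paired analysis was run, because each library carries 1 phenotype and the labels name no pairs of libraries. Unknown fragment counts limit values near 0 FPKM.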
